A study of Mus musculus with 4 samples.

Results

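Glycolysis splits glucose into pyruvate, and cells either reduce pyruvate to lactate and export it or send it into mitochondria through pyruvate dehydrogenase. Many genes of this pathway are also targets of hypoxia-inducible factor (HIF), a transcription factor whose alpha subunit is marked for destruction by oxygen-dependent prolyl hydroxylases and accumulates when oxygen is scarce. In the embryonic gut, neural crest-derived cells migrate and divide while the tissue around them is still acquiring blood vessels. The genes described here are a set of 38 with known parts in glucose transport, glycolysis, the fate of pyruvate and lactate, and the hypoxia response. They were picked by symbol from the deposited expression table, with one row per Entrez identifier. All 38 were found among its 27178 genes, and all 38 had at least 1 read in some library.

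The cells came from the gut of Wnt1-tdT mice at 11.5 days post coitum (dpc). The invasive wavefront and the cells trailing 1 to 1.5 mm behind it are represented by 2 libraries each. All 4 libraries carry the same reporter, the red fluorescent tdT driven through Wnt1, a gene of the early neural crest, and tdT-positive cells were sorted after collagenase and dispase digestion. The sort therefore holds crest derivatives at every stage of maturation, and no other mutation or treatment is named. The labels do not say whether libraries came from separate embryos, litters or pools, and the spread that p-values are measured against may therefore be technical.

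Depth was low and uneven. Outside ribosomal RNA, the trailing libraries held 386587 and 330734 reads, wavefront 1 held 452172 and wavefront 2 only 115033. Ribosomal RNA took 24.4%, 26.0% and 15.6% of reads in trailing 1, trailing 2 and wavefront 1, and 55.5% in wavefront 2. The enteric crest list was present, with all 10 genes read and a summed level of 2492 to 3295 scaled CPM (CPM, the reads of a gene relative to its library's total, after edgeR's TMM scaling) in the trailing libraries and 1969 to 4000 at the wavefront. The enteric neuron list summed to 3712 and 3915 scaled CPM in the trailing libraries against 910 and 725 at the wavefront, and 13 of its 14 tested genes were lower there. Gut mesenchyme genes summed to 168 to 169 in the trailing libraries and to 381 and 923 at the wavefront, and 11 of the 13 had a read. Of 3 tested, Des (8, 6, 73 and 10 reads) and Col3a1 (65, 58, 132 and 94 reads) were higher at the wavefront, while Barx1 and Myh11 were at 0 in every library. Erythroid genes gave 2, 0, 2 and 111 reads. All these are in the order trailing 1, trailing 2, wavefront 1, wavefront 2, which holds below wherever 4 values are given.

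Hypoxia-inducible factor binds DNA at a short core, which was searched here only in the form ACGTG. The stretches below show that form upstream of the 4 genes whose wavefront libraries both lay above both trailing libraries (Hk2, Egln3, Ero1l and Hif1a). Slc2a1 and Ldha stand beside them as the major glucose transporter and lactate dehydrogenase genes. They are reference sequence from RefSeq on GRCm38.p6, written 5′ to 3′ on the strand of the gene, with the match in capitals. A match on the other strand reads CACGT, and CACGTG holds both matches, overlapping.
Hk2, chr6:82774656-82774700, minus strand, 226 bases before the start: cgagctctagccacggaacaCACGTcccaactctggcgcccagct
Hk2, chr6:82774482-82774526, minus strand, 52 bases before the start: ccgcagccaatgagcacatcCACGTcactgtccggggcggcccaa
Egln3, chr12:54204079-54204123, minus strand, 229 bases before the start: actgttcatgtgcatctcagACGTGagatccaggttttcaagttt
Ero1l, chr14:45318611-45318655, minus strand, 63 bases before the start: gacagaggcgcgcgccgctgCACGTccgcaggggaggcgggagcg
Hif1a, chr12:73907712-73907757, plus strand, 135 bases before the start: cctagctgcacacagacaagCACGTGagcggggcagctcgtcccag
Hif1a, chr12:73907777-73907821, plus strand, 70 bases before the start: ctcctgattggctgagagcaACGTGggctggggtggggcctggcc
Slc2a1, chr4:119108689-119108733, plus strand, 36 bases before the start: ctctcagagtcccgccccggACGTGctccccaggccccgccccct
Ldha, chr7:46845639-46845684, plus strand, 145 bases before the start: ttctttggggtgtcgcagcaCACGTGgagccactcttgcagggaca
Ldha, chr7:46845736-46845781, plus strand, matches 48 and 34 bases before the start: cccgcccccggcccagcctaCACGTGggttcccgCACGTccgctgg

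Promoter entries existed for 36 of the 38 genes, in 51 windows of the 250 bases before a transcription start, and none for Slc2a3 and Ndrg1. The core, in the form ACGTG alone, occurred on either strand in at least 1 window of 22 of the 36 genes (61.1%). Over all mouse promoters of the same length it occurred in 4998 of 27025 genes (18.5%), and in 1248 of the 4522 genes (27.6%) tested by counts that had an entry. By role it was found in 9 of 11 hypoxia response genes, 5 of 8 genes of lactate and pyruvate, 3 of 6 and 4 of 10 genes of the later and earlier steps of glycolysis. It was found in 4 of the 4 genes with the wavefront libraries above, in 7 of 12 with the wavefront libraries below and in 11 of 20 whose groups overlapped. Of all genes tested by counts, 18.3% had the wavefront libraries above and 20.9% below. Hk2, Ero1l and Hif1a did not pass the count test described below, and Egln3 was not in it. Those below include Eno2 and Ankrd37, with 1, 2, 0 and 0 reads each. A link between the core and position was not tested. The match is a description of sequence and not a binding site, and genes of this set were listed for their known place in the hypoxia response.

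A difference with position passed the test for 1 of these genes. The count test, for which edgeR was run on whole reads worked back from CPM, covered 25 of the 38 genes, and the other 13 had too few reads for its filter. Of those 25, 0 were higher and 1 was lower at the wavefront at an adjusted p under 0.05 (Slc2a3, a glucose transporter), and 24 did not pass. Over all 5759 genes tested, 1.74% passed, 0.399% as higher and 1.34% as lower. At an unadjusted p under 0.05 the test gave 4 of the 25, namely Hk2 with a positive and Slc2a3, Hk1 and Slc16a3 with a negative fold change, where 9.9% of all genes gave one. DESeq2 gave an adjusted p for 22 of the 25 and called 0. limma on log2(CPM + 1) tested 37 of the 38 and called 0, and 4 had an unadjusted p under 0.05. limma called 0% of all 12519 genes, with 6.85% at an unadjusted p under 0.05.

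The median log2 fold change of the 25 genes, wavefront over trailing, was -0.06 against 0.01 for all genes, and ranged from -0.51 to 0.20 under 11 alternative settings. Single genes ran from -2.63 to 1.43, with 9 above 0 and 16 below. Both wavefront libraries lay above both trailing libraries in 3 of the 25 genes, where 18.3% of all tested genes did so, and below them in 8, where 20.9% did. Standard errors of single genes were 0.30 to 0.60 on the log2 scale, which bounds what could be seen with 2 libraries a group. For a single value, 2 against 2 libraries cannot give an exact permutation p below 0.333. Fewer cells of a type and less RNA per cell cannot be told apart in these sorted bulk samples.

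**Figure D1:**
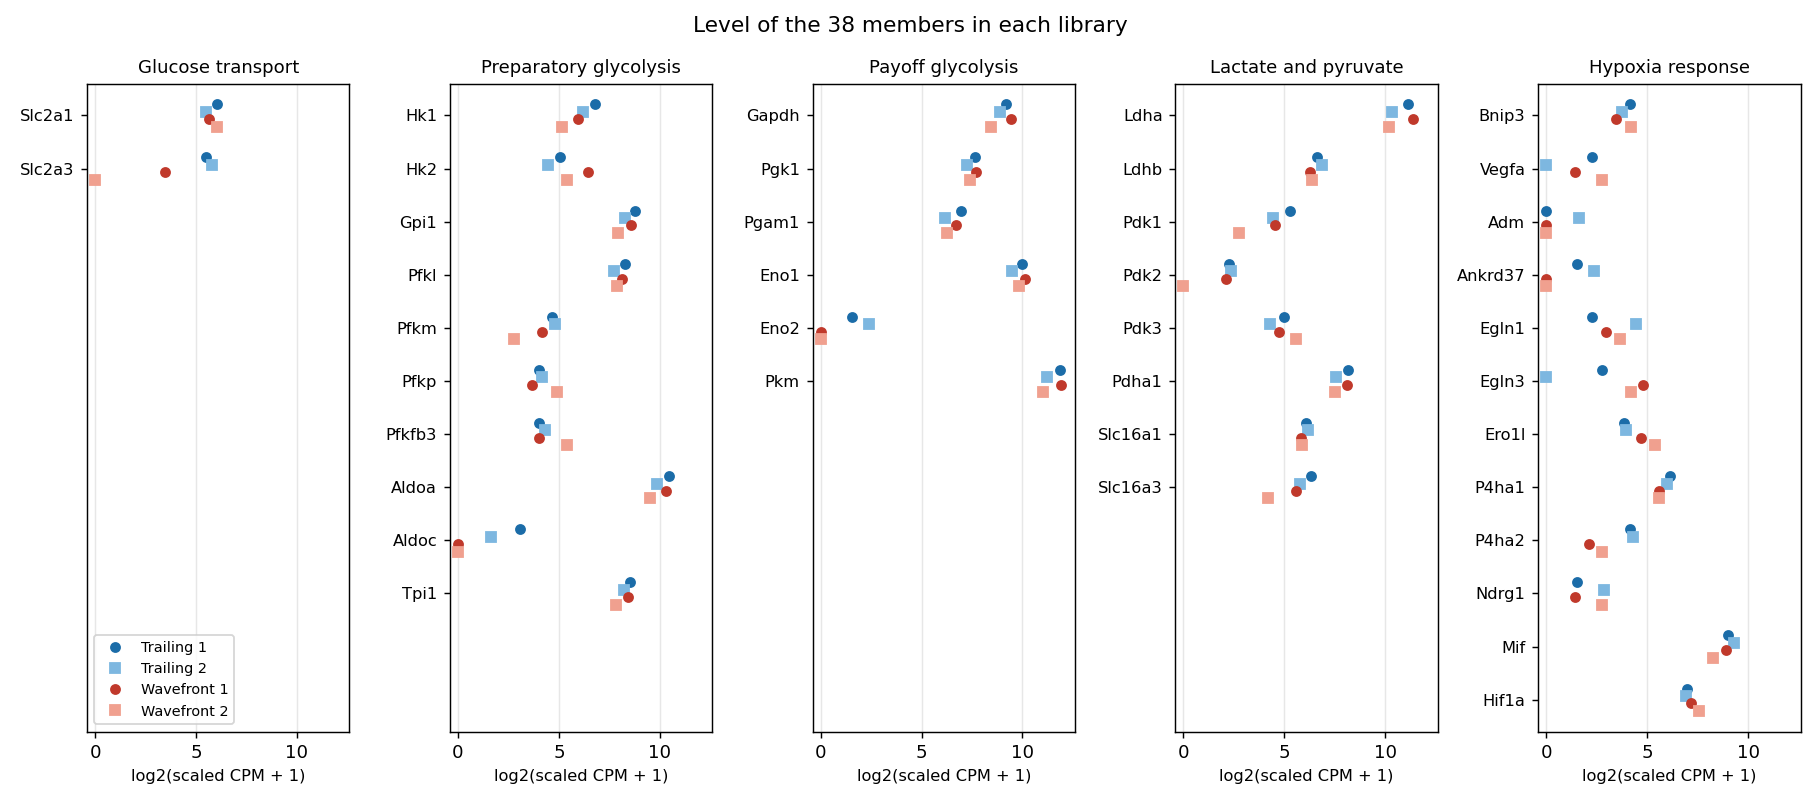
Level of each of the 38 genes in each library, as log2(scaled CPM + 1), in panels by role, with circles for replicate 1 and squares for replicate 2 of the trailing (blue) and wavefront (red) groups. Most genes have red and blue symbols interleaved, while Slc2a3 is at 10.1 and 0 scaled CPM in the wavefront libraries.

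Glucose enters cells by facilitated transport. Slc2a3 encodes GLUT3, a high-affinity transporter best known from neurons, and Slc2a1 encodes the widely expressed GLUT1. Slc2a3 (chr6:122727809-122801640, minus strand, GRCm38) had 23, 26, 6 and 0 reads, or 43.6, 54.5, 10.1 and 0 scaled CPM. A count of 0 in wavefront 2 allows up to 17.5 scaled CPM (3 reads), and both wavefront libraries stood below both trailing libraries. The group means were 49.0 ± 7.73 (SD, n = 2) and 5.04 ± 7.13, and the log2 fold change was -2.63 ± 0.60 (SE; adjusted p in edgeR = 0.00593). As raw reads over the scaled library sizes, the wavefront level was 0.161 of the trailing level, with a 95% counting interval of 0.0562 to 0.375.

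Without wavefront 2 the call for Slc2a3 held (log2 fold change -2.20, adjusted p in edgeR = 0.00616). Without wavefront 1 it also passed (adjusted p = 0.0133), but the wavefront was then a single library with 0 reads, its spread was taken from the trailing libraries, and no fold is given. The call was lost without trailing 1 (log2 fold change -2.78, adjusted p = 0.0551) and without trailing 2 (-2.51, 0.236), where a lone trailing library is likewise assumed to vary like the other group. It was also lost with the replicate number as a block (-2.62, 0.0868), in DESeq2 (-2.82, 0.981) and in limma on CPM (-3.89, 0.680). The authors' deposited table gave a log2 fold change of -1.19, with an unadjusted p of 0.0101 in their Wald test. Adjusted here over all genes with a read, that p was 0.9997. The enteric neuron list, of which this transporter is not a member, moved the same way, with its summed level given above, and the part of cell composition in the Slc2a3 difference was not tested. The annotated span of Slc2a3 also holds the pseudogene Gm4482 over 742 bases, for which no values were used here.

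Slc2a1 gave 34, 21, 29 and 11 reads, which is 64.4, 44.0, 48.7 and 64.3 scaled CPM. Its groups overlapped, with means of 54.2 ± 14.4 and 56.5 ± 11.01 (SD, n = 2) and a log2 fold change of -0.03 ± 0.37 (adjusted p in edgeR = 0.991). Slc2a3 therefore made up a different share of the reads of this pair in the libraries: 40.4% (exact 95% binomial interval 27.6 to 54.2%) and 55.3% (40.1 to 69.8%) in the trailing libraries, against 17.1% (6.56 to 33.6%) and 0% of 11 reads (0 to 28.5%) at the wavefront. The interval of trailing 1 overlaps those of both wavefront libraries, whereas that of trailing 2 overlaps neither. These intervals cover counting error only, and with 2 libraries against 2 the difference in share is described and has no test. The share does not depend on how libraries were scaled.

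The preparatory phase of glycolysis spends ATP to trap and split glucose, starting with hexokinase. Hk1 is the constitutive hexokinase of most tissues, and Hk2 is the inducible, HIF-responsive one typical of embryonic and growing cells. Hk2 (chr6:82725025-82774454, minus strand) had 17, 10, 52 and 7 reads, or 32.2, 21.0, 87.3 and 40.9 scaled CPM. Both wavefront libraries were above both trailing ones, although they differed 2.14-fold from each other. The means were 26.6 ± 7.95 and 64.1 ± 32.8 (SD, n = 2), and the log2 fold change of 1.43 ± 0.41 did not pass (adjusted p in edgeR = 0.0523).

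Hk2 lay close enough to the threshold that its side depended on the setting: it passed with DESeq2's size factors in edgeR (adjusted p = 0.0447), with no filter on low counts (0.0387) and without wavefront 2 (log2 fold change 1.75, adjusted p = 0.000862), and it did not pass in the other 8 alternatives, where adjusted p ran up to 1.00. Without wavefront 1 its log2 fold change was 0.61 (adjusted p = 0.849). The mesenchyme list summed to 381 scaled CPM in wavefront 1 and 923 in wavefront 2. The list as a whole was thus higher in wavefront 2, where Hk2 was the lower of the 2. Its gene Des, with 73 reads in wavefront 1 and 10 in wavefront 2, was highest in the same library as Hk2. Others went the opposite way in reads of wavefront 1 and wavefront 2, such as Pdgfra (2 and 10), Col1a1 (2 and 10) and Acta2 (0 and 10). The part of mesenchyme RNA in the Hk2 values was not tested.

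Hk1 (chr10:62268855-62379908, minus strand) went the other way in its read counts, with 59, 34, 36 and 6 reads, or 112, 71.3, 60.5 and 35.1 scaled CPM. Both wavefront values were below both trailing values, with means of 91.5 ± 28.6 and 47.8 ± 18.0 (SD, n = 2). The log2 fold change was -0.79 ± 0.35, and it did not pass (adjusted p in edgeR = 0.418). It ran from -0.41 without trailing 1 to -1.38 without wavefront 1.

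The makeup of hexokinase reads therefore differed between the libraries of the 2 positions. Hk2 held 22.4% (exact 95% binomial interval 13.6 to 33.4%) of the 76 hexokinase reads of trailing 1 and 22.7% (11.5 to 37.8%) of the 44 of trailing 2. At the wavefront it held 59.1% (48.1 to 69.5%) of 88 reads and 53.8% (25.1 to 80.8%) of only 13. The intervals of wavefront 1 and both trailing libraries do not overlap, whereas that of wavefront 2 overlaps them. With 2 libraries against 2 this difference is described and has no test.

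**Figure D2:**
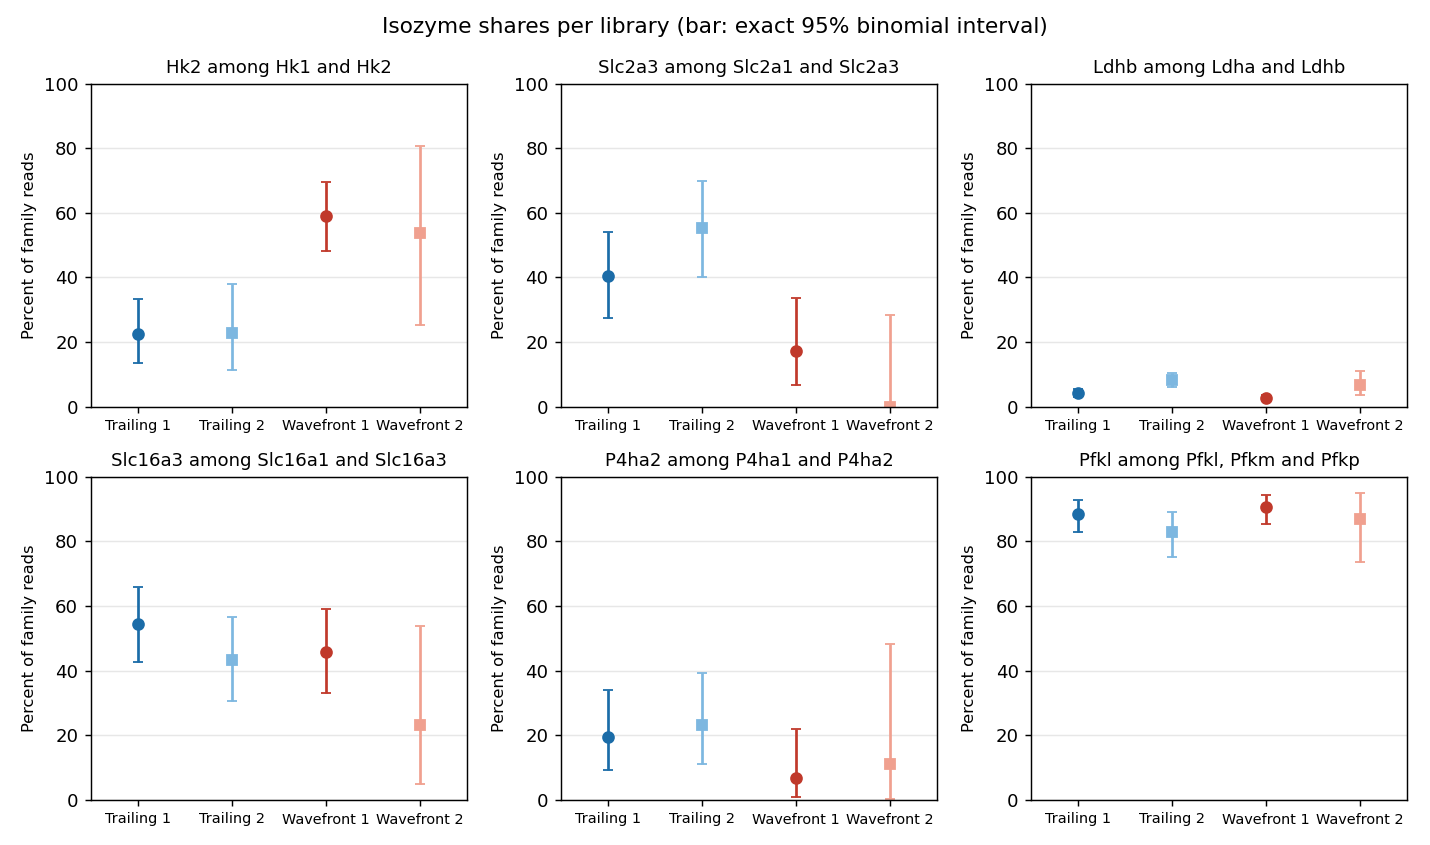
Share of the reads of 6 gene pairs or families held by one named gene, in percent, for each library, with exact 95% binomial intervals as bars. Hk2 holds 22.4 and 22.7% in the trailing libraries against 59.1 and 53.8% at the wavefront, Slc2a3 goes from 40.4 and 55.3% to 17.1 and 0%, and Pfkl stays between 82.9 and 90.7%.

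The remaining tested enzymes of the preparatory phase, other than Pfkm, had smaller fold changes than the hexokinases. Of the 10 genes in this phase 7 were tested, 0 passed in either direction, and their median log2 fold change was -0.21 (-0.62 to 0.09 under the alternatives). Aldoa, the aldolase that cleaves fructose bisphosphate, had the most reads of the group, 734, 440, 764 and 125. Its scaled levels of 1390, 922, 1283 and 730 CPM interleaved between groups, with means of 1156 ± 331 and 1007 ± 391 (SD, n = 2) and a log2 fold change of -0.19 ± 0.38 (adjusted p in edgeR = 0.934). Gpi1, the isomerase after hexokinase, gave 368 ± 87.6 and 309 ± 97.8 scaled CPM, and Tpi1, which interconverts the triose phosphates, 334 ± 52.0 and 283 ± 77.6. Both overlapped between groups.

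Phosphofructokinase catalyses the committed step and is encoded by 3 genes, of which the liver-type Pfkl predominated. Pfkl had 163, 102, 166 and 40 reads and means of 261 ± 67.1 and 256 ± 31.9 scaled CPM (SD, n = 2), with a log2 fold change of -0.01 ± 0.31 (adjusted p in edgeR = 0.997). It held 88.6, 82.9, 90.7 and 87.0% of phosphofructokinase reads. The muscle-type Pfkm gave 13, 13, 10 and 1 reads and was lower in both wavefront libraries than in both trailing ones, with a log2 fold change of -0.87 ± 0.59 that did not pass (adjusted p in edgeR = 0.705) and ran from -0.57 to -2.08 with one library left out. Pfkm overlaps Senp1 by 1156 bases on the other strand, and the Nextera XT kit does not keep strand, so reads of the overlap cannot be told apart.

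The platelet-type Pfkp (8, 8, 7 and 5 reads), Pfkfb3, which makes the activator of phosphofructokinase (8, 9, 9 and 7), and the aldolase Aldoc (4, 1, 0 and 0) were under the count filter. Pfkp and Pfkfb3 overlapped between groups, and Aldoc was read only in the trailing libraries, at levels of 1 to 4 reads. Aldoa carried 99.5, 99.8, 100 and 100% of the aldolase reads.

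The payoff phase, which returns ATP and ends in pyruvate, showed the smallest differences between positions. Of 6 genes 5 were tested, 0 passed in either direction, and all 5 log2 fold changes lay between -0.06 and 0.25. Their median was 0.02, and it ranged from -0.36 to 0.38 under the alternatives. Pkm, pyruvate kinase, had the most reads of the whole set, 1937, 1115, 2249 and 351. Its levels of 3668, 2337, 3777 and 2051 scaled CPM put one library of each group high and the other low. The means of 3003 ± 941 and 2914 ± 1221 (SD, n = 2) gave a log2 fold change of -0.04 ± 0.44 (adjusted p in edgeR = 0.992).

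Eno1, the main enolase, had levels of 994, 717, 1129 and 894 scaled CPM and a log2 fold change of 0.25 ± 0.36 (adjusted p in edgeR = 0.900). Its retrotransposed copy Eno1b was listed separately with 48, 33, 64 and 12 reads, 9.28% of the Eno1 reads, and reads of 2 such near-identical genes can be split by the counting. Eno2, the neuronal enolase, had only 1, 2, 0 and 0 reads, at or under 3 reads in both groups. Gapdh, the dehydrogenase often used as a reference gene, gave 529 ± 74.7 and 525 ± 247 scaled CPM (SD, n = 2). Its wavefront libraries were at 700 and 351, the trailing ones at 581 and 476. Pgk1 and Pgam1, the kinase and mutase between Gapdh and Eno1, gave 174 ± 35.4 and 186 ± 23.9, and 97.2 ± 36.7 and 89.2 ± 18.7.

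**Figure D3:**
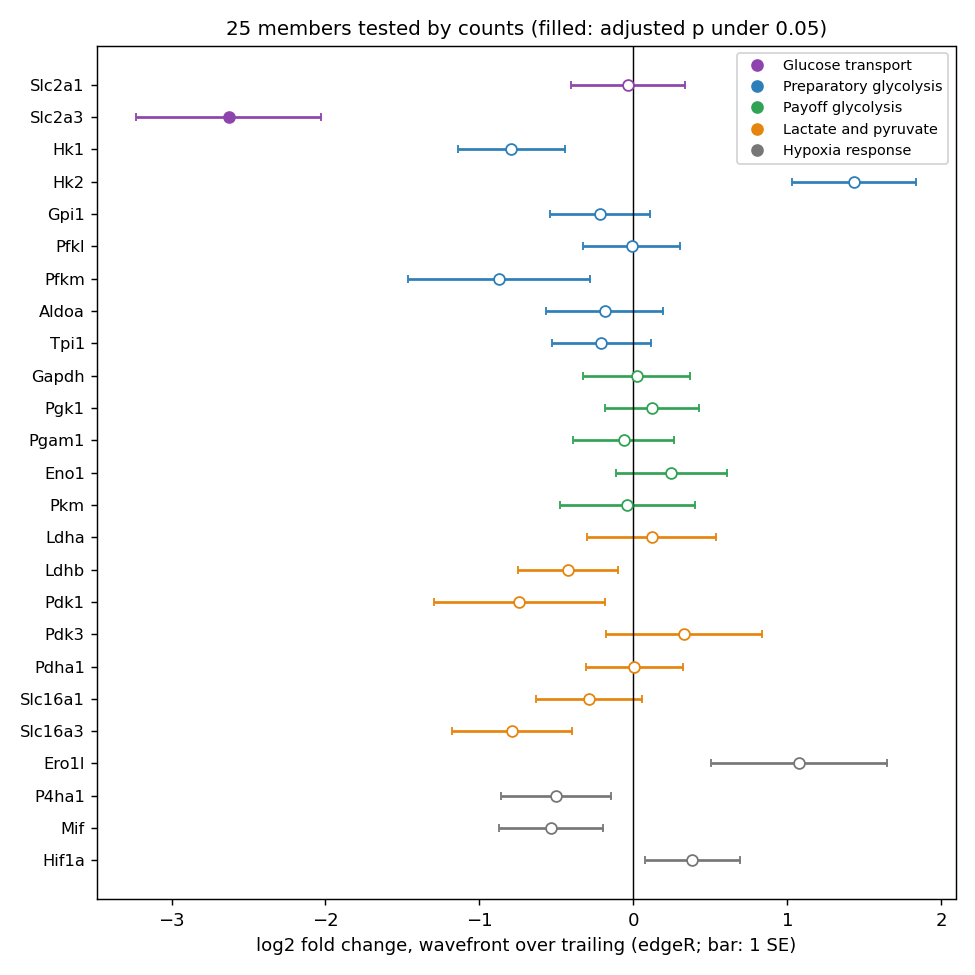
Log2 fold change, wavefront over trailing, of the 25 genes tested by counts, coloured by role, with bars of 1 standard error worked back from edgeR's test. A filled point has an adjusted p under 0.05. Slc2a3 at -2.63 is the filled point, Hk2 at 1.43 is the largest positive value, and the 5 payoff genes sit between -0.06 and 0.25.

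At the branch where pyruvate becomes lactate or enters mitochondria, 7 of 8 genes were tested and 0 passed in either direction. Their median log2 fold change was -0.29 (-0.49 to -0.18 under the alternatives), and they ran from -0.79 to 0.33. Ldha, the lactate dehydrogenase subunit that favours lactate formation, had 1189, 621, 1601 and 196 reads, or 2252, 1302, 2689 and 1145 scaled CPM. Each group again held one high and one low library, and the means of 1777 ± 672 and 1917 ± 1091 (SD, n = 2) gave a log2 fold change of 0.12 ± 0.42 (adjusted p in edgeR = 0.964). Ldhb, the subunit typical of oxidative tissue, gave 96.6, 115, 77.3 and 81.8 scaled CPM, with both wavefront libraries below both trailing ones, and a log2 fold change of -0.42 ± 0.32 (adjusted p in edgeR = 0.746). It held 4.11, 8.14, 2.79 and 6.67% of lactate dehydrogenase reads, a share that varied as much within groups as between them.

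Lactate leaves cells through monocarboxylate transporters. Slc16a3, which encodes the HIF-responsive exporter MCT4, had 42, 26, 28 and 3 reads, or 79.5, 54.5, 47.0 and 17.5 scaled CPM. Both wavefront values were below both trailing values, with means of 67.0 ± 17.7 and 32.3 ± 20.9 (SD, n = 2), and the log2 fold change of -0.79 ± 0.39 did not pass (adjusted p in edgeR = 0.491). The log2 fold change was -0.47 without wavefront 2, which held 3 of its reads, and -1.92 without wavefront 1. Slc16a1, encoding MCT1, had 35, 34, 33 and 10 reads and lay at 68.8 ± 3.52 and 56.9 ± 2.13 scaled CPM, also without overlap and also not past the test (log2 fold change -0.29 ± 0.35, adjusted p in edgeR = 0.870).

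Pyruvate dehydrogenase is switched off by its kinases. Pdha1, the catalytic subunit, gave 236 ± 70.3 and 230 ± 69.0 scaled CPM (SD, n = 2), and it shares 1143 bases with Map3k15 on the other strand. Pdk1, the HIF-responsive kinase, had 20, 10, 13 and 1 reads (log2 fold change -0.74 ± 0.55, adjusted p in edgeR = 0.741), and Pdk3 16, 9, 15 and 8 (0.33 ± 0.51, adjusted p = 0.907). Both overlapped between groups. With one library left out, Pdk1 ran from -0.29 (without trailing 1) to -2.29 (without wavefront 1) and Pdk3 from 0.072 (without wavefront 2) to 0.91 (without wavefront 1). Pdk2 was near the floor, with 2, 2, 2 and 0 reads.

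Of the 12 hypoxia response genes only 4 had reads enough for the count test. Of these 0 passed in either direction, and their median log2 fold change was -0.06 (-0.29 to 0.05 under the alternatives). Mif, a cytokine induced by hypoxia, had the most reads of the group, 271, 304, 282 and 52. Its levels of 513, 637, 474 and 304 scaled CPM placed both wavefront libraries below both trailing ones, with means of 575 ± 87.6 and 389 ± 120 (SD, n = 2) and a log2 fold change of -0.54 ± 0.34 (adjusted p in edgeR = 0.665). Without wavefront 2 it was -0.23 and without wavefront 1 -0.91. Its processed copy Mif-ps1 carried 27 reads, 2.97% of the Mif reads.

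Hif1a, the oxygen-regulated subunit itself, was among the genes whose wavefront libraries both lay above. It had 65, 58, 85 and 32 reads, or 123, 122, 143 and 187 scaled CPM, with a log2 fold change of 0.38 ± 0.31 (adjusted p in edgeR = 0.778). The trailing libraries differed by little from each other, at 122 ± 1.09 scaled CPM (SD, n = 2), and the wavefront libraries were at 165 ± 31.3. Ero1l, an endoplasmic reticulum oxidase induced by hypoxia, was at 13.3, 14.7, 25.2 and 40.9 scaled CPM from 7, 7, 15 and 7 reads (log2 fold change 1.07 ± 0.57, adjusted p in edgeR = 0.553). Both genes had their highest value in wavefront 2, the shallowest library, in contrast to Hk2.

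Egln3, a HIF prolyl hydroxylase that is itself a HIF target, had 3, 0, 16 and 3 reads and was not in the count test. The ratio of wavefront to trailing reads, over the scaled library sizes, was 8.30 with an exact 95% counting interval of 2.44 to 43.8, and 16 of its 22 reads came from wavefront 1. With no filter on low counts it passed (log2 fold change 2.93 ± 0.78, adjusted p in edgeR = 0.0280). It did not pass in limma on CPM (log2 fold change 2.91, adjusted p = 0.680). The authors' deposited Wald test gave Egln3 an unadjusted p of 0.0638, which was 0.9997 once adjusted here. The related hydroxylase Egln1 gave 2, 10, 4 and 2 reads, with no separation of the groups.

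Collagen prolyl hydroxylases are HIF targets that modify matrix proteins. P4ha1 gave 70.1, 62.9, 47.0 and 46.7 scaled CPM from 37, 30, 28 and 8 reads, both wavefront libraries below (log2 fold change -0.50 ± 0.36, adjusted p in edgeR = 0.720). P4ha2 was not tested and had 9, 9, 2 and 1 reads, a ratio of trailing to wavefront of 4.58 with a counting interval of 1.34 to 24.25. Among the classical hypoxia markers, the angiogenic factor Vegfa had 2, 0, 1 and 1 reads, the peptide hormone Adm 0, 1, 0 and 0, Ankrd37 1, 2, 0 and 0 and Ndrg1 1, 3, 1 and 1, and the mitophagy receptor Bnip3 had 9, 6, 6 and 3. Vegfa, Adm and Ankrd37 had at most 3 reads in either group, so no difference was detectable at this depth. For Bnip3 the ratio of wavefront to trailing reads was 0.787 with a counting interval of 0.304 to 1.92, and for Ndrg1 0.656 (0.0593 to 4.57).

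Levels were compared between genes per kilobase of annotated exon (GENCODE M21). Exon length was the union over all annotated transcripts of a gene, such as 4133 bases for Gapdh, 5379 for Eno1 and 745 for Mif. It can exceed the length of the transcripts in these cells, which lowers the level per kilobase. The order of genes below therefore depends on the annotation. Mif, with the shortest exon length of the set, stood at 772 ± 118 scaled CPM per kilobase in the trailing group, against 522 ± 161 in the wavefront group (SD, n = 2). Pkm (600 and 583) and Ldha (537 and 579) were at a similar level, followed by Aldoa (397 and 346) and Eno1 (159 and 188). Gapdh was at 128 and 127 and Tpi1 at 121 and 103 scaled CPM per kilobase. Neighbours such as Pkm and Ldha, or Gapdh and Tpi1, did not differ beyond their spread over libraries. The transporters and hexokinases that opened the pathway were far lower per kilobase: Slc2a1 was at 15.5 and 16.1, Slc2a3 at 6.77 and 0.695, Hk1 at 10.7 and 5.60 and Hk2 at 4.45 and 10.7. Pkm, Ldha, Aldoa and Eno1 together held 69.2, 62.7, 71.7 and 65.4% of all reads of the set.

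Libraries of the same group differed from each other in these genes, and mostly in one direction. Trailing 1 was above trailing 2 in 19 of the 25 tested genes, against 50.2% of all tested genes, and wavefront 1 was above wavefront 2 in 19, against 50.6%. Both held for 16 of the 25 (64.0%), against 26.5% of all tested genes, and for 11 of the 12 tested enzymes of glycolysis. In the neighbouring lists described below, both held for 3 of 5 tested genes among further glucose transporters and related enzymes (60%). For pyruvate entry, citrate synthase and shuttles it was 8 of 17 (47.1%). The pentose phosphate, serine, hexosamine and glycogen branches gave 4 of 13, and the further oxygen sensing genes and HIF targets 5 of 16. The median ratio of trailing 1 to trailing 2 was 1.40 over the 25 genes and 1.00 over all genes, and that of wavefront 1 to wavefront 2 was 1.51 and 1.00. Ldha was 1.73-fold apart between the trailing libraries and 2.35-fold between the wavefront libraries of the same group, and Pkm 1.57-fold and 1.84-fold. Their log2 fold changes between positions were 0.12 and -0.04.

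Of the 4 tested hypoxia response genes it held in P4ha1 and not in Mif, Ero1l or Hif1a, a difference from the enzymes that was not tested. Summed over all 38 genes the libraries stood at 12005, 8423, 12376 and 7368 scaled CPM, so that trailing 1 was close to wavefront 1 and trailing 2 to wavefront 2. Summed payoff genes alone gave 5568, 3754, 5912 and 3541. The share of ribosomal RNA set wavefront 2 apart but was 24.4 and 26.0% in the trailing libraries, and the enteric crest list was likewise higher in both first libraries. The labels do not say that a replicate number marks a shared embryo, litter or day, and the part of any of these in the pattern was not tested.

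**Figure D4:**
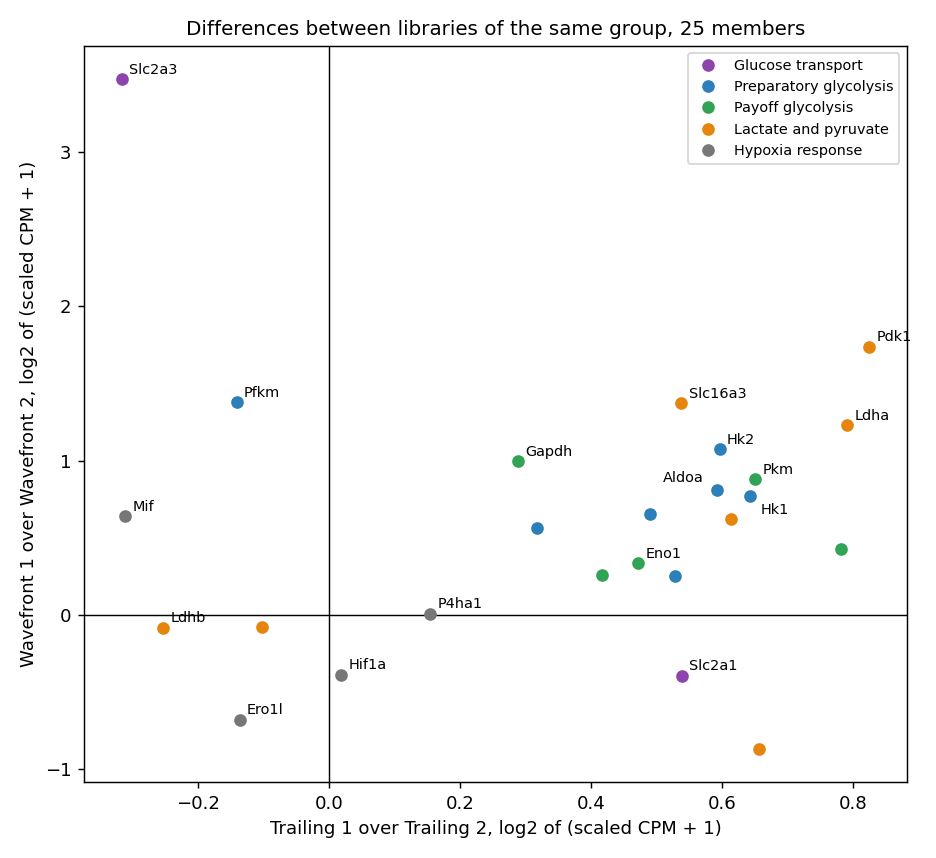
Difference between the 2 libraries of a group, as log2 of (scaled CPM + 1), for the 25 tested genes, trailing on the horizontal and wavefront on the vertical axis, coloured by role. The upper right corner, above 0 on both axes, holds 16 of the 25 points, among them Pkm, Ldha, Aldoa, Eno1, Hk1 and Hk2, while Ero1l, Ldhb and Hif1a lie outside it.

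Genes of neighbouring pathways were not called. Of 32 genes listed as further glucose transporters and glycolytic or related enzymes 5 were tested and 0 passed. The 4 with the most reads were Pgam5 (log2 fold change 0.13 ± 0.32), Pgm2 (-0.31 ± 0.40), the ADP-dependent glucokinase Adpgk (0.73 ± 0.40) and Pgm1. Despite its symbol, Pgam5 is a mitochondrial protein phosphatase and not an enzyme of glycolysis. The phosphoglucomutase Pgm1 had 21, 21, 10 and 4 reads, both wavefront libraries below, with a log2 fold change of -1.16 ± 0.50 (adjusted p in edgeR = 0.397). Of 24 genes for pyruvate entry, citrate synthase and the shuttles 17 were tested and 0 passed, with a median log2 fold change of -0.12. Citrate synthase, Cs, was at 0.27 ± 0.33 and the malate dehydrogenases Mdh2 and Mdh1 at -0.01 ± 0.32 and -0.44 ± 0.31. Of 20 genes of the pentose phosphate, serine, hexosamine and glycogen branches 13 were tested and 0 passed. Among them Psat1, of serine synthesis, had 162, 111, 323 and 49 reads (log2 fold change 0.66 ± 0.33, adjusted p in edgeR = 0.514), and transketolase, Tkt, lay at 0.02 ± 0.34.

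Of 40 further oxygen sensing genes and HIF targets 16 were tested and 0 passed, with a median log2 fold change of 0.09. Those with the most reads were Wsb1 (0.21 ± 0.31), the transferrin receptor Tfrc (0.60 ± 0.33), the mitophagy receptor Bnip3l (-0.28 ± 0.33) and the carbonic anhydrase Car12 (0.39 ± 0.33). Counted at an unadjusted p under 0.05, these lists gave 1 of 5, 0 of 17, 0 of 13 and 1 of 16 genes, where 9.9% of all tested genes gave one.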

How the data were processed

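Per the labels' protocols, Trizol RNA of the sorted cells went into Nextera XT libraries. The submitters' processing notes name STAR 2.5.2b, featureCounts and DESeq2, with bcl2fastq 2.17 and FastQC 0.11.9, and the builds GRCm38 and mm10. How strand, overlaps and multiple hits were handled is not stated in those notes. The authors deposited CPM for every gene and library, per the file headers. Each value equalled a whole number of reads times 1.93, 2.21, 1.84 or 3.84 CPM by library, which returned whole reads for 100% of values within 0.01 reads and totals of 517000, 452142, 543070 and 260217. The authors' deposited mean level is a signal, an average over libraries, and their deposited Wald statistic is a score, both per the file headers, and neither was used here. The deposited fold change of the authors is on the log2 scale, and their deposited p-value is unadjusted and was adjusted here. Of 27606 rows, 428 repeated an identifier, which left 27178 genes. Rows without a symbol (958, 1.27 to 2.51% of reads) were kept.

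The planned test for normalized values was limma 3.58.1 with a trend, on log2(CPM + 1) of genes whose mean CPM exceeded 1. Because depth could be recovered, the count test in the text is edgeR 4.0.16, quasi-likelihood, with TMM factors and filterByExpr (10 reads), under R 4.3.3. DESeq2 1.42.0 was an alternative, as were other scalings, filters, pseudocounts, each library left out and a replicate block. The standard errors of edgeR fold changes are approximate. They were worked back as the size of the log2 fold change over the square root of the test's F statistic. P-values are two-sided and Benjamini-Hochberg adjusted over all genes tested, with a threshold of 0.05. Named values were given for genes past the threshold, with an unadjusted p under 0.05 or with the most reads of a role, and every gene of the set is named. Of the other lists, up to 4 genes with the most reads could be named. Genes whose groups do not overlap, and the pattern within groups, were described after their values were seen. The genes, the lists and the tests were chosen with earlier results of these data known. The scripts were tested on simulated data. Promoter sequences are from RefSeq (GRCm38.p6), where Ero1l is listed under its current symbol Ero1a.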

Additional observations from a re-analysis of the deposited data

How the results depend on the processing

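Over all genes the count test called 100 genes, 13 with DESeq2, 13 with the authors' deposited p-values adjusted, 61 with the replicate block and 40 to 143 when one library was left out. In the set it called 1 of 25 tested, against 2 of 25 with DESeq2 size factors in edgeR, 3 of 38 with no filter (Slc2a3, Hk2 and Egln3), 0 of 22 with DESeq2, 0 of 38 with the authors' deposited p-values, 0 of 25 with the replicate block and 0 to 2 of 26 to 29 when one library was left out. Under that block Slc2a3 had an adjusted p of 0.0868 in edgeR and 0.00142 in limma. limma called 0 genes of all, against 3 with a pseudocount of 5, 5 with no filter, 36 with a mean CPM above 10, 9 with DESeq2 size-factor scaling, 4 without ribosomal RNA rows and 52 with the replicate block, and 1 rather than 0 of the set with that block. The labels do not say what a replicate number marks, and the within-group differences of the 2 groups correlated at 0.06 across 5759 genes, so pairing was not assumed.

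Under the alternatives of the count test directions reversed for 11 of the 25 genes, each with a main log2 fold change of at most 0.22 in size. With one library left out the ranges were -0.26 to 0.32 for Slc2a1, -0.62 to 0.086 for Gpi1, -0.25 to 0.30 for Pfkl, -0.66 to 0.20 for Aldoa, -0.55 to 0.063 for Tpi1, -0.41 to 0.41 for Pgam1, -0.55 to 0.38 for Pkm, -0.63 to 0.65 for Ldha, -0.59 to 0.46 for Gapdh, -0.072 to 0.37 for Pgk1 and -0.39 to 0.37 for Pdha1. Slc2a1 was at 0.027 with DESeq2 and 0.018 in the authors' deposited table, and Pfkl at 0.0051 with DESeq2 size factors. With library size alone, which moved the median of all genes to -0.20, Gapdh was at -0.14, Pgk1 at -0.10 and Pdha1 at -0.20, and with the replicate block Gapdh was at -0.052 and Pdha1 at -0.039. In limma on CPM, where the median of all genes was -0.35, Gapdh (-0.37), Pgk1 (-0.18), Eno1 (-0.04), Ldha (-0.25) and Pdha1 (-0.33) were below 0 and Hk2 was at 0.89, or -0.0044 without wavefront 1. The cause was not tested. The 115033 reads of wavefront 2 outside ribosomal RNA limit all genes with few reads.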
